A study of Mus musculus with 8 samples.

Results

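The troponins, titin and the scaffold proteins of the sarcomere were examined as 9 genes taken by name from a table of 55679 genes: Tnni3, Tnni1, Tnnt2 and Tnnc1 of the troponin complex, Ttn and its cap gene Tcap, and the filament scaffolds Mybpc3, Myom1 and Myom2. RNA-seq had been carried out on left ventricles of wild-type mice, with 4 libraries from animals given saline (control) and 4 from animals given the vessel-constricting peptide hormone angiotensin II (ANG II), which raises blood pressure, at 1500 ng/kg/min; either was delivered over 7 days from a pump under the skin. The mice of both groups were male and of the C57BL/6J strain, their age was not given in the sources used here, and the hearts were rinsed with saline before the ventricles were taken. The comparison asked how these transcripts differ in the pressure-loaded ventricle, and expression was measured as FPKM, a fragment count scaled to the length of the transcript and to the size of the library. Whole ventricle was sequenced, so the values mix heart muscle cells with all other cells, and fewer cells of a type cannot be told apart from less RNA per cell.

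The sarcomere is the contractile unit of heart muscle, in which myosin of the thick filament pulls on actin of the thin filament. Troponin sits on the thin filament and makes contraction depend on calcium: troponin C binds calcium, troponin I holds the filament off when calcium is low, and troponin T ties the complex to tropomyosin. Titin runs from the Z-disc at the edge of the sarcomere to the M-band at its centre and acts as a spring, telethonin (the product of Tcap) caps its end at the Z-disc, cardiac myosin-binding protein C lies along the thick filament, and the myomesins link thick filaments at the M-band. Tnni1 encodes the slow skeletal troponin I that the fetal heart uses, and Tnni3 the cardiac form that replaces it after birth.

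Of the 9 genes, Tnni3 fell and Tcap rose in ANG II, and the other 7 did not pass the test. Calls required a limma p-value under 0.05 after Benjamini-Hochberg adjustment over all genes tested, together with a log2 fold change above 0.5 in size. All 9 passed the filter on low values, a mean of at least 0.1 FPKM. Of all 19364 genes tested, 15.4% were called, 14% higher and 1.41% lower, against 2 of the 9, 1 in each direction. By adjusted p alone, the same count of 2 of the 9 stood against 33.3% of all genes (28.4% higher and 4.91% lower). The 8 libraries held 14455654 to 16564828 mapped fragments, and the 9 genes took 2.24 to 2.32% of them in control and 2.05 to 2.30% in ANG II. The mitochondrially encoded share of each library was 26.3 to 26.95% in control and 19.2 to 21.8% in ANG II. As deposited, the median log2 fold change of all genes tested was 0.15, and 90.8% of calls were higher. With median-of-ratios scaling, which makes the typical gene equal between libraries, the median was 0.0025 and 67.5% of calls were higher, and with quantile normalization 59.1% were higher. For the genes called, the distance from that median is therefore given beside the value as deposited.

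**Figure D1:**
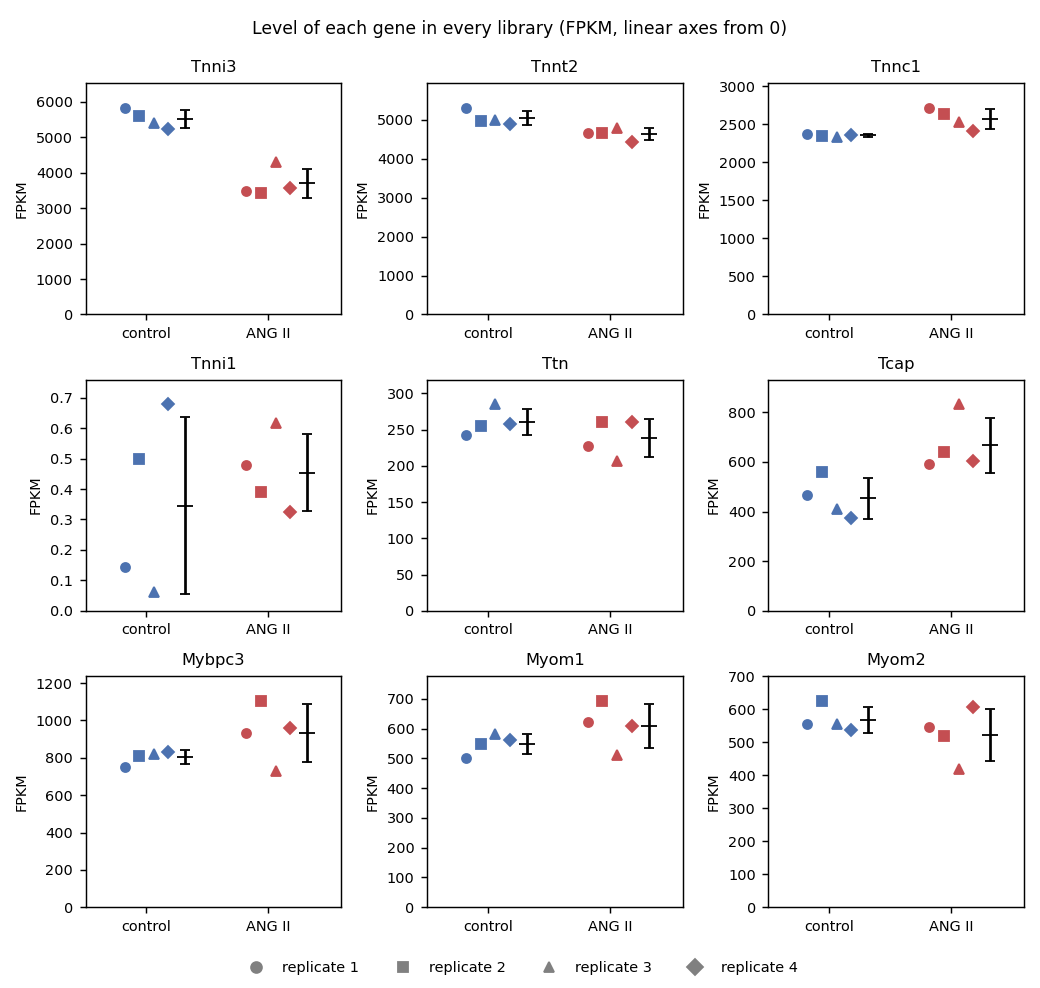
FPKM of each of the 9 genes (linear axes from 0) in the 4 control and 4 ANG II libraries, with marker shapes for replicate numbers and a bar for the mean ± SD (n = 4). Tnni3 lay between 3416 and 4306 in ANG II, below all control libraries, Tcap lay between 592 and 832, above all control libraries, and Tnni1 stayed under 1 FPKM.

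Tnni3 (ENSMUSG00000035458, chromosome 7, 4518305 to 4524229, minus strand, GRCm38), cardiac troponin I, was the most abundant of the 9 in control. Its level was 5830.5, 5611, 5398 and 5248 FPKM in control libraries 1 to 4 and 3489, 3416, 4306 and 3577 FPKM in ANG II libraries 1 to 4. The groups were apart, with every ANG II library below every control library, and ANG II 3 was the highest of its group. The mean went from 5522 ± 254 to 3697 ± 411 FPKM (SD, n = 4 per group), or 0.67 of the control level, and the log2 fold change was -0.58 (SE 0.09, 95% interval -0.79 to -0.38, limma adjusted p = 0.00102). Relative to the median of all genes it was -0.73. At the same thresholds Tnni3 was called in 17 of 18 alternative fits, the exception being quantile normalization, where the log2 fold change of -0.36 kept an adjusted p of 0.00469 but missed the fold change threshold. It was not called when a log2 fold change above 1 in size was required. Across the 18 fits its adjusted p ranged from 2.80e-05 to 0.0103. A same-strand neighbour, Dnaaf3, covered 4.17% of the exon length of Tnni3, and 1.69% of its 50-base words occurred in transcripts of other genes.

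Tnnt2 (ENSMUSG00000026414, chromosome 1, 135836354 to 135852260, plus strand), cardiac troponin T, was at 5309, 4969, 4999 and 4892 FPKM across the control libraries (1 to 4) and 4668, 4659, 4789 and 4434 FPKM across the ANG II libraries (1 to 4). The groups did not overlap, but the gap between the lowest control and the highest ANG II library was small. Means stood at 5042 ± 183 FPKM for control against 4638 ± 148 FPKM for ANG II (SD, n = 4 per group). The log2 fold change was -0.12 (SE 0.07, 95% interval -0.28 to 0.04, limma adjusted p = 0.224). Its direction depended on the scaling, with -0.35 under median-of-ratios scaling (adjusted p = 0.0106) and 0.16 under quantile normalization (0.126), and over all alternatives its adjusted p ranged from 0.0106 to 0.516.

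Tnnc1 (ENSMUSG00000091898, chromosome 14, 31208312 to 31211729, plus strand), the troponin C of cardiac and slow skeletal muscle, was at 2377, 2354, 2331 and 2366 FPKM across the control libraries (1 to 4) and 2718, 2633, 2538 and 2411 FPKM across the ANG II libraries (1 to 4). Every ANG II library was above every control library, and the control libraries differed from each other by a coefficient of variation of 0.846%, the lowest of the 9 genes in that group. Means stood at 2357 ± 19.9 FPKM for control against 2575 ± 132 FPKM for ANG II (SD, n = 4 per group). The log2 fold change of 0.13 (SE 0.06, 95% interval -0.01 to 0.26, limma adjusted p = 0.149) did not pass, and it turned to -0.10 under median-of-ratios scaling and to -0.02 when mitochondrially encoded genes and the 10 most abundant genes were left out of the totals.

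Tnni1 (ENSMUSG00000026418, chromosome 1, 135779434 to 135810989, plus strand), the fetal and slow skeletal troponin I, was close to the floor of the measurement. It was at 0.144, 0.497, 0.0626 and 0.678 FPKM in control and 0.479, 0.390, 0.618 and 0.325 FPKM in ANG II. These values rested on 1 to 10 fragments per library in control and 5 to 9 in ANG II, where a count of 1 has an exact 95% Poisson interval of 0.0253 to 5.57 and a count of 10 an interval of 4.80 to 18.4. The groups overlapped, and the log2 fold change was 0.13 (SE 0.15, 95% interval -0.21 to 0.48, limma adjusted p = 0.549), with values from 0.03 to 0.25 when single libraries were left out (lowest without control 3, highest without control 4). Its log2 fold change was 0.56 at a pseudocount of 0.1, 0.76 by voom on fragments, 0.02 under quantile normalization and 0.07 under median-of-ratios scaling, and its adjusted p was at least 0.234 in all 17 alternatives. No change in Tnni1 was detected, and the counting intervals cover counting error only. As a share of troponin I transcripts (Tnni1 over the sum of Tnni1 and Tnni3, by FPKM), Tnni1 was 0.00635 ± 0.00552% for control against 0.0121 ± 0.00240% for ANG II (SD, n = 4 per group), with a p of 0.114 by the exact permutation test (two-sided).

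A ratio of 2 genes within a library is not moved by a scaling factor common to that library, though quantile normalization, which reshapes each library, can move it. Of 7 ratios compared among the 9 genes, 5 parted the groups without overlap, each with an exact two-sided permutation p of 0.0286 (the smallest that 4 against 4 allows) and 0.04 after Benjamini-Hochberg adjustment over the 7. The share of all gene pairs that part in this way was not computed, and 33.7% of single genes tested parted the groups. Tnni3, Tnnt2, Tnnc1 and Tcap also parted the groups on their own. The ratios among Tnni3, Tnnt2 and Tnnc1 share their genes and are not independent of each other. Tnni3 over Tnnt2 went from 1.09 ± 0.0252 to 0.797 ± 0.0754 (SD, n = 4 per group), a difference of -0.46 on the log2 scale, lower in 4 of 4 ANG II libraries. Tnni3 over Tnnc1 went from 2.34 ± 0.10 to 1.44 ± 0.194, a log2 difference of -0.71. Tnnc1 over Tnnt2 went from 0.468 ± 0.0151 to 0.555 ± 0.0231, a log2 difference of 0.25. As deposited, cardiac troponin I was thus lower in ANG II against both of its partner subunits, and troponin C was higher against troponin T. After quantile normalization, an alternative chosen after the data had been seen, Tnnc1 over Tnnt2 turned to -0.12 (adjusted exact permutation p = 0.333). On that scale Tnni3 over Tnnt2 was -0.52 and Tnni3 over Tnnc1 -0.40, each with an adjusted exact permutation p of 0.05, which is at the threshold and not under it. With a trend over transcript length taken off each library, also chosen after the data had been seen, the difference of Tnnc1 over Tnnt2 was 0.23 and no longer passed (adjusted exact permutation p = 0.08), and both Tnni3 ratios kept their direction at an adjusted exact permutation p of 0.05, at the threshold.

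**Figure D2:**
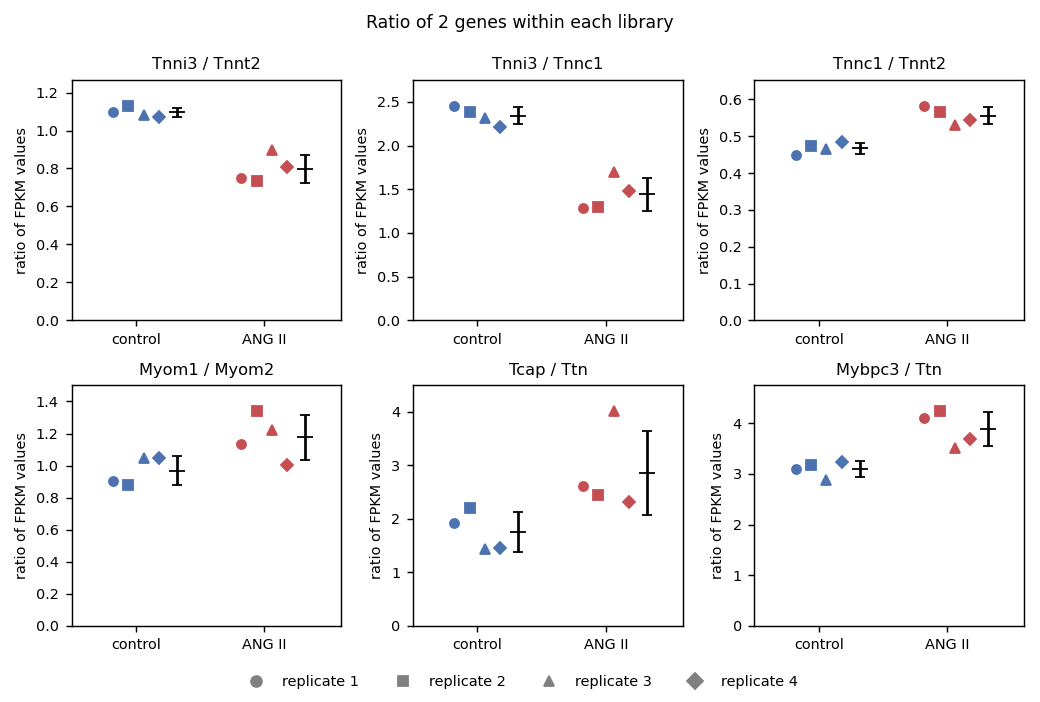
Ratios of FPKM values of 2 genes (linear axes from 0) within each of the 4 control and 4 ANG II libraries, with marker shapes for replicate numbers and a bar for the mean ± SD (n = 4). The groups did not overlap for Tnni3 over Tnnt2, Tnni3 over Tnnc1, Tnnc1 over Tnnt2, Tcap over Ttn and Mybpc3 over Ttn, and they overlapped for Myom1 over Myom2.

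The promoters of Tnni3, Tnnt2 and Tnnc1, which encode subunits of a single complex, are shown, each from 250 bases before to 50 bases after the start of a transcript in RefSeq (GRCm38.p6). They lie at chr7:4522479-4522778 on the minus strand, chr1:135836084-135836383 on the plus strand and chr14:31208062-31208361 on the plus strand, and Tnnt2 has a further RefSeq start that is not shown. Of the 9 genes, 7 had a promoter in this set. Capitals mark matches, on either strand, to letters of motifs bound in heart muscle genes: GATAA (GATA factors), CATTCC (the MCAT element of TEAD factors), CAGCTG (an E-box), the MEF2 motif, the CArG box and TATAAA (the TATA box). No match shared bases with another.
Tnni3: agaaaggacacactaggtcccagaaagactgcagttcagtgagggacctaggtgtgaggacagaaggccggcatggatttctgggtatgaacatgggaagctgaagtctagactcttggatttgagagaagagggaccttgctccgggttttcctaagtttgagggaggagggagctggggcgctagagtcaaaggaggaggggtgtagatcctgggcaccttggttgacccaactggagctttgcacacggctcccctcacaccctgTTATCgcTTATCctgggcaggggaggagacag
Tnnt2: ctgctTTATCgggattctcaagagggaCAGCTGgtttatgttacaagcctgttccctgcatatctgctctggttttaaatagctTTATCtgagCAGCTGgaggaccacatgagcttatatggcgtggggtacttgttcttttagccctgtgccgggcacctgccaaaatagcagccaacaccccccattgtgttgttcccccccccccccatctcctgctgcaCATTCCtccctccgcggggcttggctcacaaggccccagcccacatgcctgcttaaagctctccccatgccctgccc
Tnnc1: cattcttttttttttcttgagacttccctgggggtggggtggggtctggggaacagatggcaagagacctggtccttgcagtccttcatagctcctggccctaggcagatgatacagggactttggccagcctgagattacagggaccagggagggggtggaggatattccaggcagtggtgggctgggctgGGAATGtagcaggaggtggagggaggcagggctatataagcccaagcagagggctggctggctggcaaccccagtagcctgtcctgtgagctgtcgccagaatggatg

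Counted from 1 at the first base shown, the Tnni3 window held GATAA on the opposite strand at positions 269 and 276, which lie after the start. The Tnnt2 window held GATAA at 6 and 85 (both on the opposite strand), CAGCTG at 28 and 94 and CATTCC at 224, and the Tnnc1 window held CATTCC on the opposite strand at 193. Of 32851 RefSeq promoters of the same length, 25.4% held GATAA, 14.7% CATTCC, 16.3% CAGCTG, 13.6% TATAAA, 3.19% the MEF2 motif and 1.63% the CArG box. The 3 troponin windows shown thus differed in which letters they held, and a match is a description of the sequence only. At the further Tnnt2 start, the window held no match to any of these motifs. The part of these sequences in the levels was not tested.

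Tcap (ENSMUSG00000007877, chromosome 11, 98383811 to 98384953, plus strand) was the gene of the 9 that rose. Its level was 468, 559, 409.9 and 374 FPKM across the control libraries (1 to 4) and 592, 639, 832 and 604 FPKM across the ANG II libraries (1 to 4). All ANG II libraries were above all control libraries, with ANG II 3 well above the other 3. The mean went from 453 ± 80.8 to 667 ± 112 FPKM (SD, n = 4 per group), 1.47 times the control level, and the log2 fold change was 0.56 (SE 0.14, 95% interval 0.25 to 0.87, limma adjusted p = 0.0117 after Benjamini-Hochberg adjustment). Relative to the median of all genes it was 0.41. The call rested on the scaling and on single libraries: the log2 fold change was 0.33 under median-of-ratios scaling (adjusted p = 0.105), 0.48 under quantile normalization (0.0289), 0.41 with mitochondrially encoded and top 10 genes out of the totals (0.0501), 0.45 without ANG II 3 (0.0221) and 0.47 without control 4 (0.0336), and over all alternatives the adjusted p ranged from 0.00306 to 0.105.

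Ttn (ENSMUSG00000051747, chromosome 2, 76703980 to 76982547, minus strand), which encodes titin, was at 243, 255, 285 and 258 FPKM in control and 227, 261, 207 and 260.1 FPKM in ANG II. The groups overlapped, with means of 260.1 ± 17.7 and 239 ± 26.3 FPKM (SD, n = 4 per group). The log2 fold change of -0.13 (SE 0.08, 95% interval -0.31 to 0.06, limma adjusted p = 0.27) did not pass as deposited. Its adjusted p was 0.0144 under median-of-ratios scaling, at a log2 fold change of -0.36, and ranged up to 0.548 over the alternatives. The log2 fold change was -0.06 without ANG II 3 and -0.08 without control 3. Within libraries, Tcap over Ttn went from 1.75 ± 0.371 to 2.85 ± 0.784, a log2 difference of 0.69, and Mybpc3 over Ttn from 3.10 ± 0.153 to 3.89 ± 0.342, a log2 difference of 0.32 (SD, n = 4 per group; adjusted exact permutation p = 0.04 for both). After quantile normalization they were 0.77 and 0.42, and with the length trend removed 0.66 and 0.32, each with an adjusted exact permutation p of 0.05, not under the threshold. Thus the cap and the thick filament scaffold were both higher against titin in 4 of 4 ANG II libraries than in any control library. Without ANG II 3, whose Tcap over Ttn ratio of 4.01 was the highest of the 8, the log2 difference of that ratio was 0.51.

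Mybpc3 (ENSMUSG00000002100, chromosome 2, 91118144 to 91136516, plus strand), cardiac myosin-binding protein C, was at 752, 812, 822 and 833 FPKM across the control libraries (1 to 4) and 931, 1106, 727 and 961 FPKM across the ANG II libraries (1 to 4). ANG II 1, 2 and 4 were above all controls, whereas ANG II 3 was below all of them. The means were 805 ± 35.9 and 931 ± 156 FPKM (SD, n = 4 per group), and the log2 fold change was 0.20 (SE 0.11, 95% interval -0.05 to 0.44, limma adjusted p = 0.208). Without ANG II 3 it was 0.31 with an adjusted p of 0.0103, still under the fold change threshold, and under median-of-ratios scaling it was -0.03 (adjusted p = 0.869); these 2 adjusted p-values were the lowest and highest over the alternatives. Without ANG II 2 the log2 fold change was 0.11.

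Myom1 (ENSMUSG00000024049, chromosome 17, 71002633 to 71126856, plus strand) and Myom2 (ENSMUSG00000031461, chromosome 8, 15057653 to 15133541, plus strand), the myomesins of the M-band, had values on opposite sides of 0. Myom1 was at 500.5, 548, 581 and 562 FPKM across the control libraries (1 to 4) and 621, 694, 512 and 608 FPKM across the ANG II libraries (1 to 4). Myom2 was at 554, 626, 554 and 538 FPKM across the control libraries (1 to 4) and 547, 518, 418 and 605 FPKM across the ANG II libraries (1 to 4). In both, ANG II 3 was the lowest of its group and the groups overlapped. The log2 fold change was 0.15 for Myom1 (SE 0.09, 95% interval -0.05 to 0.35, limma adjusted p = 0.245), turning to -0.08 under median-of-ratios scaling, and -0.13 for Myom2 (SE 0.10, 95% interval -0.36 to 0.10, limma adjusted p = 0.374). Myom2 was at -0.36 under median-of-ratios scaling (adjusted p = 0.0215) and at -0.21 under quantile normalization. Over the alternatives the adjusted p ranged from 0.0340 to 0.995 for Myom1 and from 0.0215 to 0.794 for Myom2. Without ANG II 3, Myom1 was at 0.23 with an adjusted p of 0.0340, under the fold change threshold, and Myom2 at -0.03. Myom1 was at 0.08 without ANG II 2, and Myom2 at -0.08 without control 2 and at -0.21 without ANG II 4. Myom1 over Myom2 went from 0.968 ± 0.0918 to 1.18 ± 0.141 (SD, n = 4 per group), and this difference did not pass (exact two-sided permutation p = 0.0857, 0.1 adjusted over the 7 ratios).

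**Figure D3:**
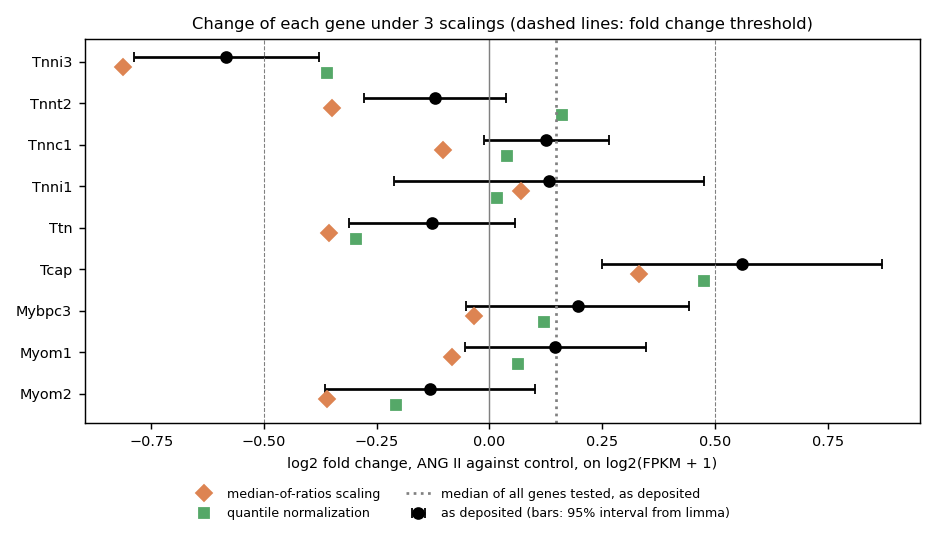
Log2 fold change of each of the 9 genes (ANG II against control, on log2(FPKM + 1)) as deposited, with 95% intervals from limma, and under the other 2 scalings, median-of-ratios and quantile. Tnni3 lay below 0 under the 3 scalings and Tcap above 0, while Tnnt2, Tnnc1, Mybpc3 and Myom1 changed side of 0 with the scaling.

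Across the 9 genes, the groups did not overlap for 4, namely Tnnc1 and Tcap with higher and Tnni3 and Tnnt2 with lower values in ANG II, against 33.7% of all genes tested (28.7% higher and 5.06% lower). The median log2 fold change of the 9 was 0.13, against 0.15 for all genes tested. Under median-of-ratios scaling, 4 of the 9 had an adjusted p under 0.05, all of them lower in ANG II (Ttn, Tnni3, Tnnt2 and Myom2), against 27.7% of all genes in either direction and 13.1% lower. Under quantile normalization 3 of the 9 did (Ttn, Tnni3 and Tcap), against 27.9% of all genes. With the fold change threshold added, 1 of the 9 was called under median-of-ratios scaling (Tnni3, lower), against 12.8% of all genes in either direction and 4.16% lower. ANG II 3 held the extreme value of its group for 8 of the 9 genes: it was highest for Tnni3, Tnni1, Tnnt2 and Tcap and lowest for Ttn, Mybpc3, Myom1 and Myom2. Over 1266 genes with transcripts under 1000 bases and 796 with transcripts of 3000 bases or more, the short genes of ANG II 3 stood above the long ones by 0.14 on the log2 scale, as deviations from the group mean, whereas the other 7 libraries lay between -0.07 and 0.07. The part of transcript length in these values was not tested beyond the alternative with the length trend removed, where Tnni3 (-0.61) and Tcap (0.55) kept their calls.

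The order of levels among the 9 was read per length, which in this table is the mean length of a gene's annotated transcripts. On FPKM, the order in control was Tnni3, Tnnt2, Tnnc1, Mybpc3, Myom2, Myom1, Tcap, Ttn and Tnni1, and only Tnni3 and Tnnt2, Myom2 and Myom1, and Myom1 and Tcap overlapped as neighbours. In ANG II, Tnnt2 stood above Tnni3 without overlap. Ttn is affected most by the length used, because its 25 annotated transcripts had a mean length of 18817 bases while the longest had 106824. Rescaled to the longest transcript of each gene, Ttn was at 45.8 ± 3.11 FPKM for control against 42.0 ± 4.63 FPKM for ANG II (SD, n = 4 per group), and Tnni3 at 3677 ± 169 and 2462 ± 274 FPKM. On that scale, Tnnc1 stood above Tnnt2 in both groups, and Tnni3 and Tnnc1 overlapped in ANG II. With the same length used in both groups, the ratio of a gene's FPKM between groups does not depend on this choice. Differences in FPKM and levels compared between genes do. The log2 fold changes include a pseudocount, so for low genes such as Tnni1 they can also move with the length.

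The other genes of the sarcomere were counted in lists by location. Of 9 thick filament genes, 2 were called higher and 3 lower (2 higher and 5 lower by adjusted p alone), and their median log2 fold change was -0.25. Those called lower were Myh7b (log2 fold change -0.76), Mylk3 (-0.59) and Myh6 (-0.55, from a mean of 10367 to 7102 FPKM). The largest value was that of Myh7, the slow myosin heavy chain of the fetal heart, which went from 47.4 ± 8.58 to 649 ± 290.2 FPKM (SD, n = 4 per group; log2 fold change 3.64, limma adjusted p = 2.86e-05), although Myh7 and Myh6 are close in sequence and reads may be split between them. Of 10 thin filament genes, 3 were called higher and 0 lower by limma (3 lower by adjusted p alone), with a median of -0.14. Those called were Acta1, the skeletal alpha-actin (463 ± 189 to 1108 ± 376 FPKM, with overlap between the groups), and the tropomyosins Tpm2 (18.7 ± 2.12 to 41.1 ± 3.74 FPKM) and Tpm3 (85.3 ± 7.47 to 158 ± 17.3 FPKM). Of 15 Z-disc genes, where telethonin lies, 5 were called higher and 0 lower by limma (0 lower by adjusted p alone), with a median of 0.08, Xirp2 having the largest log2 fold change (1.07, SE 0.15). Of 14 genes of the M-band or of titin's partners, 5 were called higher and 0 lower by limma (2 lower by adjusted p alone), with a median of 0.06. Ankrd1, a stretch-responsive protein that binds titin, rose from 582 ± 61.0 to 1685 ± 233 FPKM (SD, n = 4 per group), and Fhl1, a LIM protein that also binds titin, from 87.0 ± 6.56 to 155 ± 18.6 FPKM. Over the 4 lists together, 15 of 48 genes were called higher and 3 lower, against the 14% and 1.41% of all genes given above, and 16 were higher and 10 lower by adjusted p alone, against 28.4% and 4.91%.

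Of 8 genes for sarcomere assembly and its chaperones, 1 was called higher and 1 lower. Hspb7, a small heat shock protein of muscle, rose by 0.66 on the log2 scale (SE 0.05), and Unc45b, the chaperone that folds myosin, fell by 0.58 (SE 0.08). Of 9 splicing factors that act on sarcomere transcripts, Ptbp1 was called higher (21.2 ± 1.58 to 34.3 ± 3.77 FPKM) and Rbfox1 lower (23.1 ± 0.653 to 12.9 ± 2.77 FPKM; SD, n = 4 each), and 3 were lower by adjusted p alone. Of 8 skeletal muscle counterparts of the 9 genes, 5 reached the filter. Mybpc2 (9.60 ± 2.74 to 25.5 ± 5.16 FPKM) and the fast troponin T gene Tnnt3 (0.728 ± 0.274 to 3.29 ± 1.20 FPKM) rose, and the slow skeletal troponin T gene Tnnt1 fell from 17.6 ± 1.48 to 9.16 ± 1.004 FPKM (SD, n = 4 per group; log2 fold change -0.88, limma adjusted p = 0.000102).

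**Figure D4:**
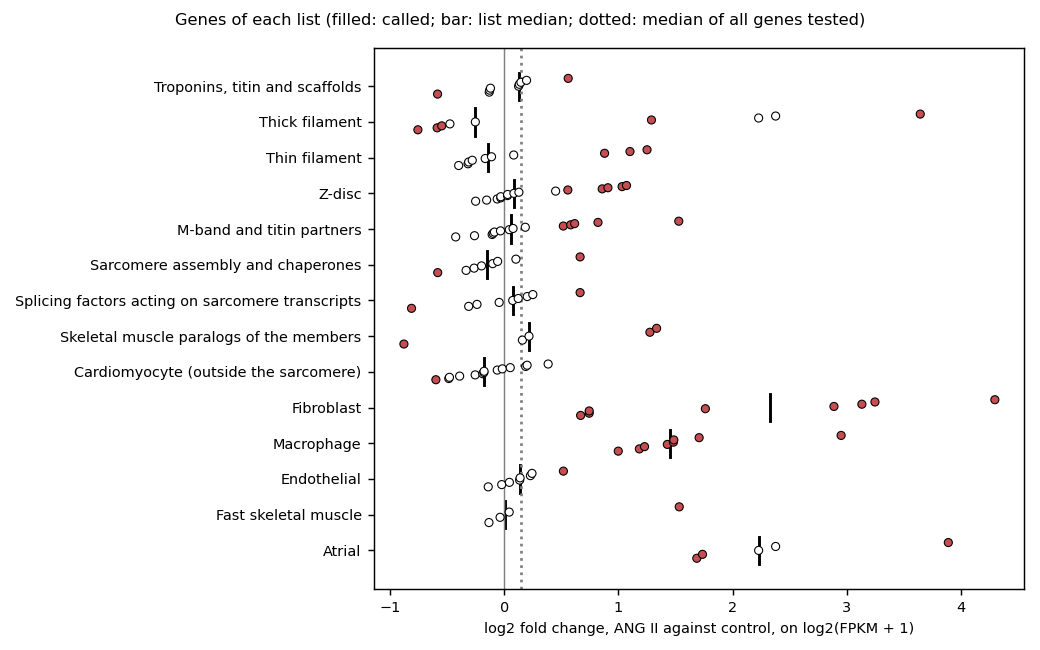
Log2 fold change (ANG II against control, on log2(FPKM + 1)) of each gene tested in the 9 genes described here, in 7 lists of sarcomere and related genes and in 6 lists of cell type markers. Filled points passed the call, bars give list medians and the dotted line the median of all genes tested (0.15), and the 9 genes spanned -0.58 to 0.56.

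Markers were read to see which cell types moved with these values. Of 14 genes of heart muscle cells outside the sarcomere, 1 was called lower and 0 higher by limma (6 lower and 1 higher by adjusted p alone), a median of -0.18 on the log2 scale and a summed level of 19161 to 19533 FPKM in control and 16331 to 18085 in ANG II. Set against that median, Tnni3 was at -0.41 and Tcap at 0.74, Ttn, Tnnt2 and Myom2 were within 0.06 of it, and Tnni1 (0.31), Tnnc1 (0.30), Mybpc3 (0.37) and Myom1 (0.32) were above it. The log2 fold changes of the 14 genes themselves ran from -0.60 (Hrc, the gene called lower) to 0.38. Tnni3 (-0.58) lay within that range and Tcap (0.56) above it. All 8 fibroblast markers and all 8 macrophage markers were called higher, with summed levels of 524 to 790 FPKM in control against 3355 to 4006 in ANG II, and of 149 to 184 against 388 to 517 FPKM. Of 8 endothelial markers, 1 was called higher. Of 8 fast skeletal muscle markers, Myl1 was called higher, while Myh4 was listed at 0 in all 8 libraries and Myh1 and Myh2 had group means of at most 0.0291 FPKM. Of 6 atrial markers, 3 were called higher (Nppa, Dkk3 and Sln). Nppa, which encodes atrial natriuretic peptide and is also a known stress gene of the ventricle, went from 8.61 ± 1.86 to 141 ± 22.9 FPKM (SD, n = 4 per group). The summed level of the list was 8.90 to 65.0 FPKM in control against 210.4 to 355 in ANG II. Myl4 and Myl7 had log2 fold changes of 2.23 and 2.38, above those of Dkk3 (1.74) and Sln (1.69). Both missed the call narrowly, each with a limma adjusted p of 0.0557. Bmp10 was at a mean of 0.011 FPKM or less in each group. The part of these cell types in the values of the 9 genes was not tested.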

How the data were processed

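Gene expression was measured by RNA-seq (oligo(dT)-enriched, paired-end) in 8 libraries of left ventricle. The authors deposited 1 table of FPKM values with a column per library. The submitters' processing notes name Bowtie2, HISAT and RSEM; the genome build, annotation release and use of strand were not given in the sources used here. The mean length of a gene's transcripts came from GENCODE M21 (GRCm38; 55141 gene IDs matched), and FPKM times this length rose in even steps, each worth 1 fragment. At least 98.1% of values under 60 fragments were whole within 0.05, and fragments were read from these steps. Libraries of a group differed beyond sampling noise (chi-square per gene of at least 7.44). The study's methods describe biological replicates, more per group than the 4 analysed here. The labels name no animal for each library, and p-values measure the spread between these samples. The extraction text in the labels speaks of another cell source; heart muscle markers were abundant in all 8 libraries.

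The comparison used limma 3.58.1 (R 4.3.3; lmFit, eBayes, trended variance), applied to log2(FPKM + 1) where the mean reached 0.1 FPKM. Samples were grouped from their labels. The study names limma among its tools, with these thresholds; the log base, pseudocount and filter were chosen here. Fold changes on this scale understate the change of low genes. Ratios were compared by exact two-sided permutation tests over 70 allocations (scipy 1.17.1), and figures drawn with matplotlib 3.10.9 (Python 3.11.15).

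The 9 genes were named by rule. From each list, up to 3 called genes with the largest absolute log2 fold change could be named, and for each called member the 3 genes nearest to it in pattern. Dnaaf3, Myh6, Mylk3 and single uncalled markers were named after their values were seen. Members and lists were chosen with earlier results of these data known. Alternatives were the pseudocount, the filter, 3 scalings, an untrended variance, a block for the replicate number, voom on the recovered fragments, the call thresholds, each library left out, and, chosen after the data had been seen, removal of a length trend and, for the ratios, quantile normalization. The labels state no pairing by replicate number, and none was seen. Protein sequences were not used here.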

Additional observations from a re-analysis of the deposited data

How the results depend on the processing

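Of the 9 genes, 2 were called in the comparison as reported and also with a pseudocount of 0.1, with either other filter, without a variance trend, with voom on the recovered fragments, with the length trend removed and by adjusted p alone. With median-of-ratios scaling 1 was called (Tnni3), as with mitochondrially encoded and top 10 genes out of the totals, and with quantile normalization 0 (by limma, 3 of the 9 and 27.9% of all genes then had an adjusted p under 0.05). Above an absolute log2 fold change of 1, 0 were called, and 795 of all genes; by adjusted p alone 6447 of all genes were called, against 2981. Leaving out each library in turn gave 1 to 2 of the 9 genes and 2763 to 3109 genes in all, the call of Tcap being lost without control 4 or ANG II 3.

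Among single genes, those whose value changed sign were not called. They were Tnnt2 with quantile normalization (0.16), Tnnc1 with median-of-ratios scaling (-0.10) and without mitochondrially encoded and top 10 genes (-0.022), Mybpc3 with median-of-ratios scaling (-0.034), and Myom1 with median-of-ratios scaling (-0.083) and without mitochondrially encoded and top 10 genes (-0.0011). The share of Tnni1 in troponin I passed when 1 FPKM was added to each value (a difference of 0.0149 percentage points, adjusted exact permutation p = 0.0333), an amount above every Tnni1 value. Tnnc1 over Tnnt2 did not pass with the length trend removed (0.23) and changed sign with quantile normalization (-0.12), where Tnni3 over Tnnt2 (-0.52), Tnni3 over Tnnc1 (-0.40), Tcap over Ttn (0.77) and Mybpc3 over Ttn (0.42) kept their direction at an adjusted exact permutation p of 0.05, no longer under the threshold. The same p was given with the length trend removed for Tnni3 over Tnnt2 (-0.49), Tnni3 over Tnnc1 (-0.71), Tcap over Ttn (0.66) and Mybpc3 over Ttn (0.32). In both alternatives these 4 ratios kept the smallest exact permutation p possible, 0.0286, and the adjusted value went from 0.04 to 0.05 because 4 rather than 5 of the 7 reached it; the cause of the change in Tnnc1 over Tnnt2 was not tested. With 1 library left out, an exact test of a ratio cannot go under 0.05, and the log2 differences ranged from -0.52 to -0.42 for Tnni3 over Tnnt2, -0.79 to -0.66 for Tnni3 over Tnnc1, 0.22 to 0.27 for Tnnc1 over Tnnt2, 0.51 to 0.81 for Tcap over Ttn and 0.28 to 0.37 for Mybpc3 over Ttn.

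With the replicate number as a block, 2968 genes and the same count of 2 of the 9 were called. Same-numbered samples deviated with correlations across genes of -0.03 to 0.06, so the numbers give no pairing. Tnni1 rested on at most 10 fragments per library and the other 8 genes on at least 5419; the part of depth in the result for Tnni1 was not tested.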

Other observations

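Tnni3 lies beside the slow skeletal troponin T gene Tnnt1 on the same strand of chromosome 7, with 1923 bases between them, and overlaps Dnaaf3 on its other side. Among these neighbours, Tnnt1 fell by 0.88 on the log2 scale, as given above, and Dnaaf3, which encodes a dynein assembly factor, had means of 1.74 ± 0.308 FPKM for control against 1.13 ± 0.316 FPKM for ANG II (SD, n = 4 per group; log2 fold change -0.37, limma adjusted p = 0.0626 after Benjamini-Hochberg adjustment). Dnaaf3 was chosen after its values were seen. It shares exon bases on the same strand with the far more abundant Tnni3, and the part of Tnni3 reads in its value was not tested. Tnni1 and Tnnt2 lie on the same strand of chromosome 1 with Lad1 between them.

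The genes nearest to the called ones in pattern were found among 6741 genes averaging at least 10 FPKM, by the root mean square difference of log2(FPKM + 1) over the 8 libraries, each gene centred on its mean. For Tnni3 these were Fam174b (0.05), Adhfe1 (0.06) and Ech1 (0.06), the last an enzyme of fatty acid oxidation, which went from 1275 to 812 FPKM in the mean. For Tcap they were Mrpl52 (0.04), Rpl37a (0.09) and Txn1 (0.10), that is, a mitochondrial ribosomal protein, a cytosolic ribosomal protein and thioredoxin. Among the 273 genes called lower, Tnni3 was the fourth most abundant by mean FPKM.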
